A study of Mus musculus with 11 samples.

Results

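Heart RNA of infarcted mice that received the ADAM10 inhibitor GI254023X (A10i) was compared with that of infarcted mice that received only its solvent DMSO. The comparison takes 8 of the 11 libraries of the series, 4 from A10i mice (A116, A117, A119 and A120) and 4 from DMSO mice (A105, A127, A128 and A129), chosen by their treatment labels. All 8 mice were female C57BL/6J animals aged 8 weeks, in which the LAD, the left anterior descending artery of the heart, was tied off for good. Tissue of the infarct and its border zone was collected 3 days later. Each mouse carried a subcutaneous pump that gave off its content steadily, A10i at 100 mg/kg in 4 mice and only the solvent in the other 4, with a lag before the start. The 3 sham-operated mice of the same strain, sex and age (S1, S2 and S3, labelled DMSO) gave healthy heart tissue, and their levels are printed only for reference.

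ADAM10 is a protease anchored in the cell membrane that cuts off the outer parts of other membrane proteins, a step called shedding. Its substrates include Notch receptors, cadherins and the chemokines CX3CL1 and CXCL16, and the inhibitor acts on this protein activity, not on transcripts. In the first days after infarction the dying muscle is invaded by neutrophils and monocytes, after which macrophages, fibroblasts and new vessels build the scar. A10i blocks the activity of the protein, so Adam10 mRNA is no check of the treatment.

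Each mouse is 1 library of poly(A) RNA, and the A10i libraries held 21702623 to 25695213 counted fragments and the DMSO libraries 22651265 to 29004048. Mitochondrial genes took 15.7 to 17.9% of the counts with A10i and 14.8 to 18.6% with DMSO. As a check of the labelled tissue, all 28 cardiomyocyte markers were tested, and they summed to 81756 to 108577 counts-per-million (CPM) with A10i, 72715 to 104803 with DMSO and 131834 to 134789 in sham mice. Of 10 red blood cell transcripts tested, the summed level was 5261.6 CPM in A10i mouse A117 and 3900.5 in DMSO mouse A105, against 377 to 1555.1 in the other 6 infarcted mice. These 2 mice stand apart in red cell RNA, 1 in each group. No label gives an operation day or litter, so a part of these in the differences was not tested. By animal number the A10i mice form 1 block, with only A105 of the DMSO mice before it and A127, A128 and A129 after it. Values per mouse are given in the order A116, A117, A119, A120 for A10i and A105, A127, A128, A129 for DMSO, as normalized counts, meaning counts scaled to library size with TMM factors.

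Of 55421 genes in the table, 16792 passed the filter and were tested with edgeR's quasi-likelihood test. With A10i, 3 genes rose (0.0179% of those tested) and 9 genes fell (0.0536%) at a Benjamini-Hochberg adjusted p under 0.05. The called genes share an adjusted p of 0.0479, and the next gene stood at 0.0514. Before adjustment, 1193 genes (7.1%) were higher and 1130 genes (6.73%) lower at a p under 0.05. The 4 A10i values lay wholly above the 4 DMSO values in 674 genes (4.01%) and wholly below them in 690 genes (4.11%). At the study's own threshold of 0.01, DESeq2's Wald test put 104 genes higher (0.573% of 18151 with an adjusted p) and 123 lower (0.678%), whereas edgeR put 0 there in either direction. The study also used the R package IHW, left out here, so 104 and 123 are not the counts it reported. In edgeR, 226 of these DESeq2 genes were tested, where each of them kept its sign at an unadjusted p under 0.05. The number of edgeR calls changed when a mouse was left out, which also makes a group smaller. It was 0 without A117, A119, A120, A128 or A129 and 1 lower gene without A105. It was 15 higher and 25 lower without A116 and 11 higher and 21 lower without A127. All 12 called genes kept their direction in every one of these fits.

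Most differences were small. Over all genes tested, the log2 fold change had a median of 0.003, and 254 genes (1.51%) differed at least 2-fold in either direction. Among the genes with an unadjusted p under 0.05, the higher ones had a median size of 0.496 on the log2 scale and the lower ones of 0.402. The higher genes were longer, with a median transcribed length of 4318 bases against 3794 for the lower ones and 3840 over all genes tested. They were also less abundant, with a median of 255 normalized counts against 509 for the lower ones. The part of length and abundance in the calls was not tested.

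**Figure D1:**
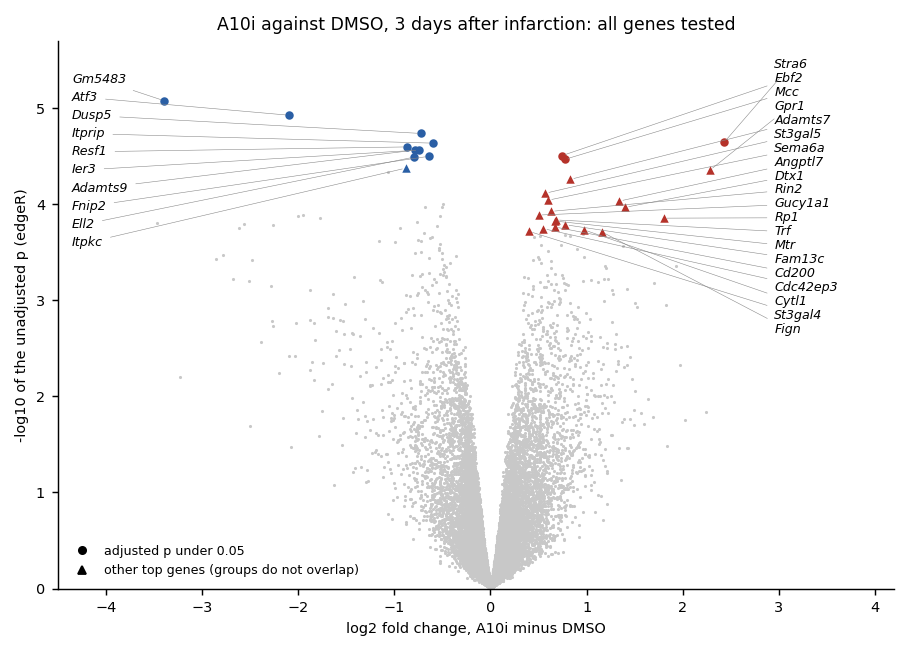
Volcano plot of the 16792 genes tested, with the log2 fold change (A10i minus DMSO) on the horizontal axis and the negative log10 of edgeR's unadjusted p on the vertical axis. Circles mark the 3 genes that rose (red) and the 9 that fell (blue) at an adjusted p under 0.05, and triangles mark the other labelled protein-coding genes, whose 2 groups of mice do not overlap.

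The 3 genes that rose were Stra6, Ebf2 and Mcc. Stra6 (ENSMUSG00000032327, GRCm38 chromosome 9, 58063788 to 58153996, plus strand) encodes the cell surface receptor that takes up retinol from its plasma binding protein. It had 17, 18, 14 and 24 normalized counts with A10i and 3.2, 3.4, 2.6 and 4.0 with DMSO. Every A10i mouse lay above every DMSO mouse, at the level of the sham mice, which had 19.9, 9.6 and 16. The log2 fold change was 2.43 (edgeR adjusted p = 0.0479, standard error 0.33). DMSO libraries held only 3 to 4 reads of Stra6 each, and the ratio of the summed counts was 5.51 (95% exact interval 3.07 to 10.6, covering counting error only).

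Ebf2 (ENSMUSG00000022053, chromosome 14, 67233292 to 67430918, plus strand) encodes a transcription factor of mesenchymal and fat cell precursors. Its values were 253, 255, 293 and 251 with A10i, 157, 169.7, 149.7 and 153 with DMSO, and 278, 285 and 286 in sham mice. The groups were separate and differed by 0.74 on the log2 scale (edgeR adjusted p = 0.0479, standard error 0.11). Mcc, on chromosome 18, encodes a brake on canonical Wnt signalling. It had 418, 433, 504 and 497 normalized counts with A10i and 239, 309, 279.8 and 256 with DMSO, again without overlap, and 431, 522 and 544 in sham mice. Its log2 fold change was 0.77 (edgeR adjusted p = 0.0479, standard error 0.11).

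The next 17 protein-coding genes complete the 20 higher ones with the smallest p among those without overlap, at edgeR adjusted p-values from 0.0514 to 0.0707. The least abundant of them was Gpr1, a receptor of the adipokine chemerin, with 10.1, 12, 13 and 13 normalized counts against 2.2, 2.6, 2.6 and 2.0 (log2 fold change 2.28, standard error 0.34, edgeR adjusted p = 0.0514). Its DMSO libraries held 2 to 3 reads each, and the ratio of summed counts was 5.03 (95% exact interval 2.5 to 11.2, again covering counting error only). Rp1, best known as a microtubule protein of photoreceptors, had 58, 59, 78 and 76 with A10i and 26, 28, 13 and 11 with DMSO, against 91 to 98 in sham mice. Dtx1, a ubiquitin ligase of the Notch pathway, had 38, 63, 48 and 40.2 with A10i and 17, 16, 19 and 19 with DMSO. DESeq2 gave these 3 genes adjusted p-values of 0.0147, 2.18e-05 and 0.000652.

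Several of the 20 act at the cell surface or in the matrix. Adamts7, a secreted metalloprotease that cleaves cartilage oligomeric matrix protein, had 653, 612, 668 and 779.5 with A10i, 301, 395, 439.7 and 391 with DMSO, and 1051 to 1175 in sham mice (log2 fold change 0.83, standard error 0.13, edgeR adjusted p = 0.058). It overlaps Tbc1d2b on the opposite strand, so its count is uncertain if the counting ignored strand. Cd200, the ligand of an inhibitory receptor on myeloid cells, had 1187, 1191, 1411 and 1385 with A10i against 831, 987, 729 and 704 with DMSO. The guidance protein gene Sema6a had 367 to 471 against 266 to 289. Angptl7, which encodes a secreted angiopoietin-like protein and lies inside Mtor on the other strand, had 276, 450.1, 266 and 456 with A10i and 135, 142, 118 and 178 with DMSO.

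Sialic acid enzymes were also among them. St3gal5, which makes the ganglioside GM3, had 1353, 1644, 1412 and 1625 with A10i and 1119, 974, 996 and 984 with DMSO (edgeR adjusted p = 0.0707, log2 fold change 0.57). St3gal4, which caps galactose with sialic acid, had 816 to 891 against 603 to 673, a log2 fold change of 0.40. Gucy1a1, the alpha subunit of the nitric oxide receptor guanylate cyclase, had 646, 712, 745 and 624 against 484, 502, 449.9 and 491. The beta subunit Gucy1b1 had 528 to 598 against 432 to 517, without overlap (log2 fold change 0.27, edgeR adjusted p = 0.229). Trf, which encodes the iron carrier transferrin, had 1484, 1673, 1135 and 1479.8 with A10i against 793 to 944 with DMSO and 881 to 1057 in sham mice.

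The remaining ones had modest differences. Mtr, methionine synthase of the folate cycle, had 3286 to 4141 with A10i, 1996 to 2712 with DMSO and 4882 to 5768 in sham mice. Fign, a microtubule-severing enzyme, had 192 to 245 against 60.2 to 122, far under the sham level of 423 to 459. Rin2, an activator of the endosomal GTPase Rab5, had 838 to 1094 against 579 to 707, and Cdc42ep3, an effector of Cdc42, had 608 to 803 against 459 to 496. Fam13c and Cytl1 complete the group, with 239 to 309 against 130.5 to 183 and with 269 to 458 against 166 to 196. In these 20 genes the separation of A10i from DMSO is part of how they were chosen.

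**Figure D2:**
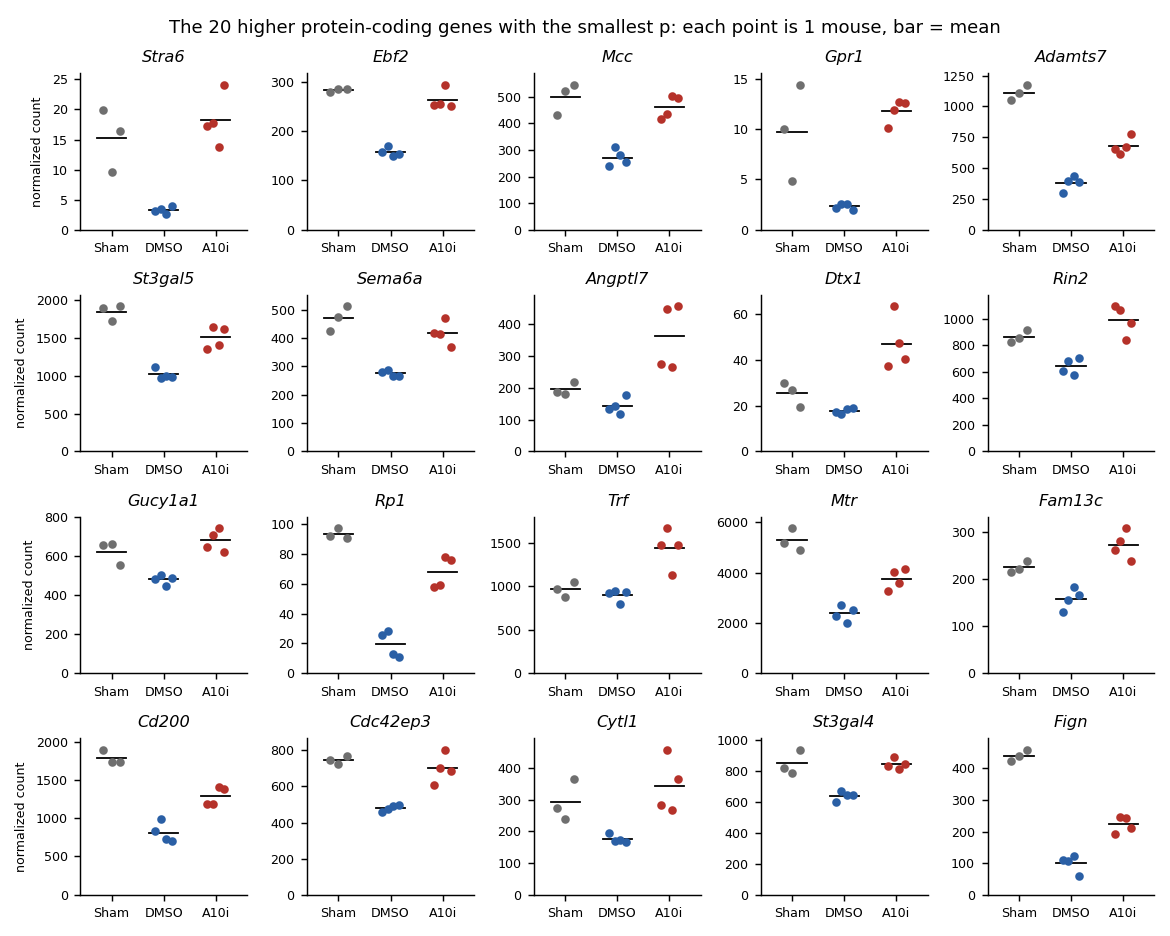
Normalized counts (vertical axes, each starting at 0) of the 20 higher protein-coding genes in every mouse, in 3 sham, 4 DMSO and 4 A10i mice, where each point is 1 mouse and the bar is the group mean. The A10i points lie above the DMSO points in each panel because that was required, while the sham points lie beside the A10i points for Stra6, Ebf2, Mcc and St3gal4 and well above them for Adamts7, Mtr and Fign.

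Genes were then described by 59 lists of cell type markers and functions, each by its count and median. Whole tissue was sequenced, so fewer cells of a type and less RNA per cell cannot be told apart. Of 34 genes of resting fibroblasts, all tested, 29 were higher and 5 lower with A10i, 17 of them (50%) higher at an unadjusted p under 0.05 and 0 lower, against 7.1% and 6.73% of all genes. Their median log2 fold change was 0.36, against 0.003 over all genes. Their summed level was 4360.3, 5257.5, 4439.8 and 4849.3 CPM with A10i and 3504.8, 3954.9, 4265.2 and 3707.1 with DMSO, without overlap, and 3894.3 to 4107.5 in sham mice. When each mouse was left out in turn, 10 to 18 members were higher at that level, with 10 without A105 or A120 and 11 without A117, and the median lay between 0.30 and 0.41.

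Among these fibroblast genes, Ebf2 rose as given above. Dpt, which encodes the matrix protein dermatopontin, had 2882, 3206, 2779 and 2922 normalized counts with A10i and 1976, 2371, 2072 and 2286 with DMSO (log2 fold change 0.44, standard error 0.08, edgeR adjusted p = 0.0821). Adamts5, an aggrecan-cleaving protease, had 1159.8, 1114, 1224 and 1127 against 631, 730.1, 934 and 755 (log2 fold change 0.60, edgeR adjusted p = 0.0794). Pi16, a marker of adventitial fibroblasts, had 2552, 3271, 2842 and 3454 against 1714, 2672, 2113 and 1885, with A116 below the highest DMSO mouse. Genes of activated fibroblasts were less uniform. Of 27 tested, 22 were higher, 5 of them at an unadjusted p under 0.05, and 1 was lower at that level, with a median of 0.38. The 5 were 1 without A116 or A128, 3 without A105 and 13 without A129, where the median ran from 0.17 to 0.67. Thbs4, a thrombospondin of stressed heart muscle and tendon, had 1060.4, 506, 719.9 and 743 against 400.0 to 605, and Angptl4, an inhibitor of lipoprotein lipase, stood the other way with 659, 764, 214 and 509 against 1357, 1085, 1111 and 2381 (log2 fold change -1.46, edgeR adjusted p = 0.147).

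Of 43 genes for matrix proteins beyond the collagens, all tested, 35 were higher and 8 lower, 17 (39.5%) higher and 3 (6.98%) lower at an unadjusted p under 0.05, with a median of 0.36 and 13 to 22 higher members when each mouse was left out. Fbln1, an elastic fibre protein, had 2685, 3771, 3139 and 3206 normalized counts with A10i and 1651, 2467, 1936 and 1625 with DMSO (log2 fold change 0.74, standard error 0.15, edgeR adjusted p = 0.0931). Its relative Fbln5 had 902, 1009.9, 823 and 919 against 537, 731, 671 and 634. Fmod, which encodes the collagen-binding proteoglycan fibromodulin, had 186 to 325 against 115.7 to 173.6, and Sparcl1, a matricellular protein, had 6810.4 to 8136 against 4443 to 6036 and 8799 to 10202 in sham mice. All 4 were without overlap. Timp2, an inhibitor of metalloproteinases, had 4301, 4161, 4183 and 4417 against 2686, 3409.9, 2726 and 3259 (log2 fold change 0.50, edgeR adjusted p = 0.0821), and shares its strand with the overlapping gene Cep295nl.

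The count of collagen genes turned on single mice. Of 25 tested, 21 were higher, but 5 (20%) were so at an unadjusted p under 0.05 and 1 was lower, and the summed level of 6478 to 11689 CPM with A10i overlapped the 3787.5 to 9297.4 with DMSO. The number was 15 without A129, 2 without A128 and 3 without A105 or A116. The basement membrane chains stood on both sides. Col4a3 and Col4a4, which share a heterotrimer, had 105.4, 90.0, 140.4 and 154.1 against 55, 81, 77 and 72, and 205, 191, 262 and 284 against 159.6, 183, 153 and 151. Col4a5, the third chain of that trimer, stood the other way with 1705, 1613, 1776 and 1734 against 2297, 1788, 2471 and 2134 (log2 fold change -0.35, edgeR adjusted p = 0.182).

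Wnt pathway genes were higher in 26 of 32 tested, 15 (46.9%) at an unadjusted p under 0.05, with 0 lower at that level and a median of 0.34. Of 39 listed genes, 7 did not pass the filter. The summed level was 401, 424, 386 and 401 CPM with A10i, above the 302, 336, 345 and 360 with DMSO and the 317 to 330 of sham mice. Wnt5a, a ligand of the non-canonical branch, had 247, 309.6, 304 and 261 against 208, 171, 203 and 198 (log2 fold change 0.53, standard error 0.12, edgeR adjusted p = 0.106). Apcdd1, a membrane inhibitor of Wnt, had 167, 137, 189 and 209 against 92, 111, 111 and 114. Wnt10b, a canonical ligand, had 11, 28, 13 and 19.5 against 6.5, 8.6, 1.7 and 1.0 (edgeR adjusted p = 0.161). Its ratio of summed counts was 4 (95% exact interval 2.38 to 7.05, covering counting error only and not the spread between mice). Ligands and inhibitors of the pathway thus stand on the same side. Of 35 TGF-beta and BMP genes, 17 were higher and 18 lower, with a median of -0.01. In that list Gdf10, a BMP-related growth factor, had 55, 87, 67 and 63 against 38, 21, 31 and 30.1, and Smad7, an inhibitor of the pathway, had 662 to 776 against 815 to 1100.4.

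Of the 56 lists with 9 or more genes tested, the mesothelial and epicardial list had the highest share of higher members at an unadjusted p under 0.05. Of its 20 genes, all tested, 19 were higher and 11 (55%) were so at an unadjusted p under 0.05, with 1 lower and a median of 0.60. Besides Stra6, Aldh1a1, which oxidizes retinal to retinoic acid, had 802, 1091, 882 and 1276 normalized counts with A10i and 606, 695, 615 and 708 with DMSO (log2 fold change 0.63, standard error 0.14, edgeR adjusted p = 0.107). Muc16, the surface mucin CA125, had 202, 413, 178 and 278 against 46, 156.8, 128.4 and 99.3, and Nkain4 had 68, 123, 68 and 129.9 against 41 to 62. Upk3b, a uroplakin of mesothelium, overlapped, with 255, 574, 293 and 465 against 224, 338, 163 and 217. A117 and A120 were the highest A10i mice in Aldh1a1, Muc16, Nkain4 and Upk3b, and 7 to 13 members were at that level when each mouse was left out, with 7 without A105, A117, A120 or A128.

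Retinoid genes stood on both sides. Of 22 tested, 6 (27.3%) were higher and 4 (18.2%) lower at an unadjusted p under 0.05. Opposite to Stra6 and Aldh1a1, Rdh10, the enzyme that makes retinal from retinol, had 209, 243, 199.5 and 237 with A10i and 422, 305, 420.1 and 358 with DMSO, without overlap (log2 fold change -0.76, standard error 0.13, edgeR adjusted p = 0.0707). In sham mice it had 191 to 239. The transcripts of Stra6 and Aldh1a1 were thus higher and that of Rdh10 lower in the same hearts, with only Stra6 past the threshold. Retinoid uptake and synthesis were not measured.

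Complement genes were higher in 19 of 26 tested, 12 (46.2%) at an unadjusted p under 0.05 and 0 lower, with a median of 0.43. The summed level was 2918, 3197.6, 2527.8 and 2836 CPM with A10i and 2114.9, 2435.6, 2214.9 and 2365.1 with DMSO, without overlap, against 1301.9 to 1394.1 in sham mice. Leaving out each mouse gave 11 to 13 members at that level. Cfd, the serine protease factor D of the alternative pathway, had 157, 289.8, 113 and 200.1 against 81, 55, 39 and 92 (log2 fold change 1.52, standard error 0.34, edgeR adjusted p = 0.107, DESeq2 adjusted p = 0.00105). The C1 proteases C1s1 and C1ra, which start the classical pathway, had 1256, 1791, 1277 and 1512 against 761, 1114, 995 and 749, and 643, 981, 619.6 and 689.9 against 411, 537, 514 and 449.5. Cd55, which protects host cells from complement, had 415 to 505 against 304 to 381. Factor D is also an adipocyte product, and the adipocyte markers Adipoq and Car3 had 42, 97, 15 and 38 against 24, 17, 5.1 and 18, and 191, 651, 137 and 195 against 175, 99, 46 and 102. Of 11 adipocyte markers tested, 4 (36.4%) were higher at an unadjusted p under 0.05, against 7.1% of all genes. The count was 2 higher and 2 lower without A117 and 6 higher without A105 or A119. The summed level of the markers was 739 to 1038.6 CPM with A10i and 825 to 1090.7 with DMSO, while Adig, Lep and Retn did not pass the filter. The part of fat tissue in the Cfd values was not tested.

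**Figure D3:**
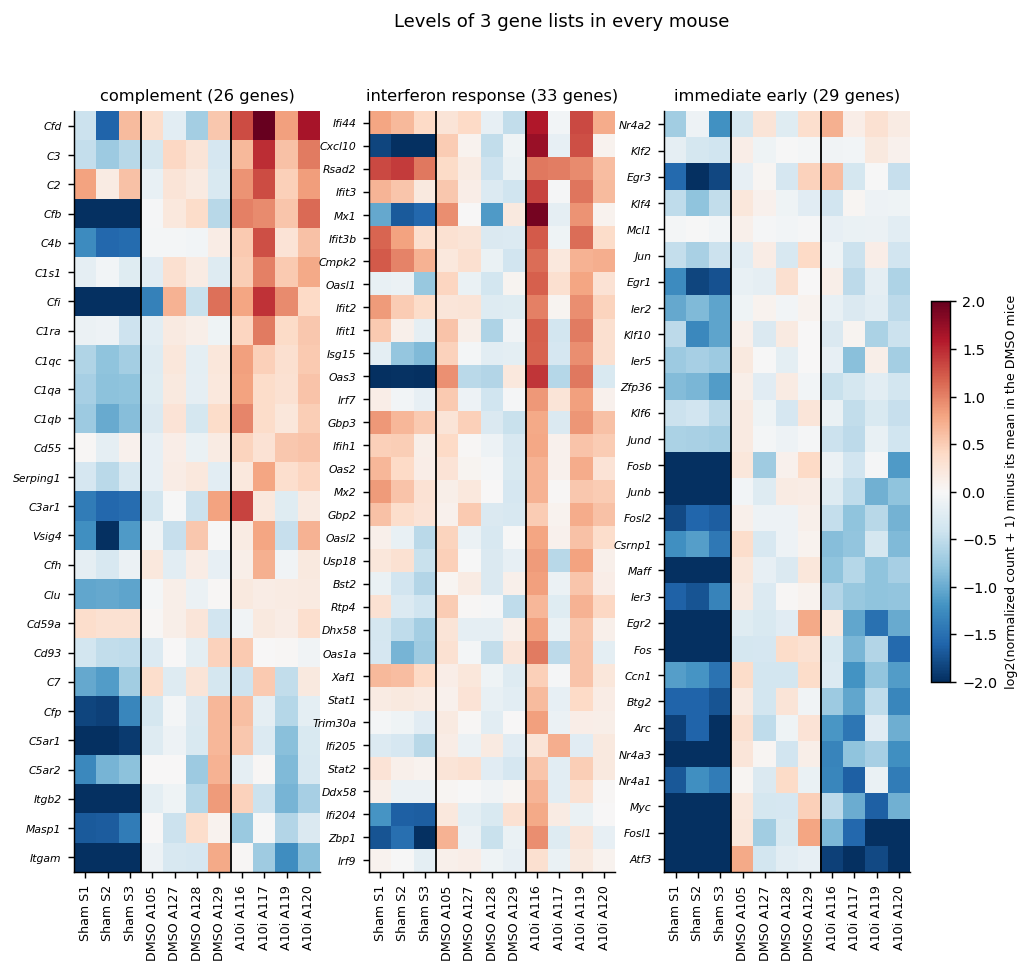
Heat map of the tested members of the complement, interferon response and immediate early lists (rows, ordered by log2 fold change) in 3 sham, 4 DMSO and 4 A10i mice (columns), coloured by log2(normalized count + 1) minus the mean of the DMSO mice, with colours ending at 2 units either way. Interferon genes are red in A116 and A119 and paler in A117 apart from Rsad2 and a few others, while most rows of the immediate early panel are blue in most A10i mice and dark blue in the sham mice.

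Resident macrophage markers were higher in 28 of 32 tested, 16 (50%) at an unadjusted p under 0.05 and 1 lower, with a median of 0.40 that stayed between 0.35 and 0.52 with each mouse left out. Single markers ran from a log2 fold change of -2.20 to 1.42. Their summed level of 1608 to 2199.8 CPM with A10i overlapped the 1312.1 to 1706.5 with DMSO, and sham mice had 1189.8 to 1250.5. Hpgd, which breaks down prostaglandins, had 310.2, 425, 326 and 475 normalized counts with A10i and 226, 261, 227 and 202 with DMSO (log2 fold change 0.75, standard error 0.15, edgeR adjusted p = 0.0931). Folr2, a folate receptor of tissue macrophages, had 412, 442, 360.0 and 419.7 against 213, 264, 269.6 and 349, without overlap, and the ribonuclease gene Rnase4 had 1685 to 2265 against 1182 to 1624. Folr2 overlaps Gm10602 on the opposite strand and Rnase4 shares its strand with Ang. Of 25 scavenger receptor and lectin genes, 4 (16%) were higher at an unadjusted p under 0.05, and 1 (without A105, A116 or A128) to 9 (without A129) with each mouse left out, and 2 without A120 or A127. Of these, Cd163, the haemoglobin receptor, had 1284, 2175, 1001 and 1606 against 1048, 704, 816 and 967, and Mrc1, the mannose receptor, had 3352, 3218, 2146 and 2550.2 against 1857, 2325, 1722 and 2546.

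Markers of inflammatory monocytes leaned the other way without a common direction. Of 24 tested, 9 were higher and 15 lower. At an unadjusted p under 0.05, 0 were higher and 8 (33.3%) lower. The median of -0.30 ran from -0.14 without A129 to -0.88 without A116. The 8 lower ones at that level were 4 without A129 and 5 without A117, A119 or A120. Their summed level of 1131 to 3126.8 CPM with A10i overlapped the 1193 to 3131.4 with DMSO. Chil3, a chitinase-like protein of monocytes and neutrophils, had 501, 447, 109 and 222 with A10i and 937, 559, 1229 and 2514 with DMSO (log2 fold change -2.03, standard error 0.53, edgeR adjusted p = 0.156). The lectin receptor gene Clec4e had 115.6, 54.4, 29.6 and 75.9 against 205, 180.0, 147 and 264. For comparison, the summed level of the neutrophil markers was 68.7 to 130 CPM with A10i and 160 to 281 with DMSO, without overlap. Clec4d is in both lists, and the part of neutrophils in the monocyte list was not tested.

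Other immune cells were sparse. Mast cell proteases were among the higher genes, with Cma1 (chymase) at 32, 43, 25 and 46 against 19, 21, 13 and 17 and Tpsb2 (tryptase) at 29, 38, 29 and 59 against 24, 28, 15 and 13, though the mast cell receptor gene Kit had 122 to 288 against 168 to 468. Genes of antigen presentation on class II molecules were higher in 13 of 15 tested, but 1 passed an unadjusted p of 0.05. H2-Aa, for example, had 1098, 586, 841 and 828 against 527, 622, 178 and 614, so that the overlap rests on A117 and the distance partly on A128. Most lymphocyte markers did not pass the filter, 8 of 14 for B cells and 17 of 20 for T and NK cells, including Ms4a1, Cd3e and Cd8a. The T cell receptor gene Trac had 27, 16, 14 and 14 against 7.5, 3.4, 10.2 and 8.0.

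Genes of the type I interferon response were higher with A10i in 33 of 33 tested, 13 of them (39.4%) at an unadjusted p under 0.05, with a median of 0.46. This count depended on single mice. It was 25 without A117, but 4 without A116, 5 without A128, 6 without A129 and 7 without A119, while the median stayed between 0.33 and 0.58. Rsad2 (viperin, an antiviral enzyme) was the one member without overlap, with 754, 742, 699.9 and 556 normalized counts against 471, 407, 272 and 332 (log2 fold change 0.90, standard error 0.17, edgeR adjusted p = 0.0778, DESeq2 adjusted p = 0.000375). Sham mice had 758 to 960.0. In Cmpk2, a nucleotide kinase of the response, the values were 409, 219, 306 and 312 against 217, 235, 171 and 143. Ifi44 had 303, 96, 251 and 167 against 119.7, 132, 88 and 70.2, and Ifit2, which binds foreign RNA, had 867, 447, 820.2 and 582 against 510.0, 514, 357 and 361. In these last 3 genes A117 was the lowest A10i mouse and lay within the DMSO range.

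The interferon element (GAAA, any 2 bases, GAAA), searched on both strands, was found in a RefSeq promoter window (250 bases before to 50 after a start) of 16 of 24 interferon genes with an entry (66.7%), against 3.81% of 11188 tested genes with an entry. The 250 bases before the start are shown for the 2 matching members with the smallest p and a match before the start, Rsad2 (GRCm38.p6, chr12:26456453-26456702, minus strand) and Ifit3 (chr19:34583279-34583528, plus strand), 5′ to 3′, with the element in capitals.
Rsad2: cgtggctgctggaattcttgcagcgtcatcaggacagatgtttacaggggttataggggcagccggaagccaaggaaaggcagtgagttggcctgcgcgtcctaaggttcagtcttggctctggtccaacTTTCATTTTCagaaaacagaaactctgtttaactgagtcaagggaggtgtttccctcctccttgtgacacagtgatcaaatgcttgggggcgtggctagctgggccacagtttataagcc
Ifit3: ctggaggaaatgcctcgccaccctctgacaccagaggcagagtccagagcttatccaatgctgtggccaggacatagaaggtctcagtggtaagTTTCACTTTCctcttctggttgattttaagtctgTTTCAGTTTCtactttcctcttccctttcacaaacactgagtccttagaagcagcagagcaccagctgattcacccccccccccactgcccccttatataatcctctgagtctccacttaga
The Rsad2 window holds 1 element, which starts 120 bases before the start, and the Ifit3 window holds 2. Ifit3, named here for its promoter after its values were seen, had 719.8, 278, 597 and 440.4 normalized counts with A10i and 413, 310.2, 233 and 215 with DMSO (edgeR adjusted p = 0.273, log2 fold change 0.80), and its near-identical copy Ifit3b makes that count uncertain. A match of letters is a description of the window and not a bound site.

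Vessel genes were mixed. Of 28 endothelial markers, all tested, 6 (21.4%) were higher and 2 (7.14%) lower at an unadjusted p under 0.05, with a median of 0.14. The shares over all genes were 7.1% and 6.73%. Their summed level of 3964.6 to 4855.8 CPM with A10i overlapped the 3796.7 to 4823 with DMSO. Kdr, the main receptor of VEGF-A, had 4449, 3884, 5391 and 3821 normalized counts with A10i and 2988, 3243, 2785 and 2886 with DMSO, without overlap (log2 fold change 0.56, standard error 0.12, edgeR adjusted p = 0.0949). Its co-receptor gene Nrp1 had 3102, 2921, 3625 and 2508 against 2293, 2060.2, 2259 and 2083, also without overlap (log2 fold change 0.49, edgeR adjusted p = 0.11). Genes of leukocyte adhesion were evenly split, with 10 of 20 higher and 10 lower, 3 (15%) and 4 (20%) of them at an unadjusted p under 0.05, and a median of 0.00. Cd34, a sialomucin of endothelium and stem cells, had 5027, 4711, 4919 and 5154 against 3332, 4437, 3515 and 4236, and it overlaps Gm16897 on the other strand. The selectins, which capture leukocytes on inflamed endothelium, had lower values. Sele (E-selectin) had 80.1, 45, 53 and 43 against 178, 100.3, 202 and 109, and the log2 fold change stood at -1.42 (edgeR adjusted p = 0.0931, standard error 0.29, DESeq2 adjusted p = 0.000547). Selp (P-selectin, also stored in platelets) overlapped, with 199.7, 131, 84 and 99 against 224, 178, 423 and 290.0, and had 3.1 to 11 in sham mice.

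Pericyte and smooth muscle markers were higher in 19 of 22 tested, 9 (40.9%) at an unadjusted p under 0.05 and 0 lower, with a median of 0.18. Their summed level was 1639.9 to 1752.8 CPM with A10i, just above the 1380.5 to 1622.3 with DMSO, and 2026.1 to 2148.5 in sham mice. Lmod1, an actin nucleator of smooth muscle, had 161, 260.1, 172 and 174 normalized counts with A10i against 130.5, 115.7, 125.0 and 112.4 with DMSO (log2 fold change 0.67, standard error 0.17, edgeR adjusted p = 0.14). Higd1b, a pericyte marker, had 138, 139, 182 and 174 against 110.0, 132.8, 95.2 and 105.4, and Itga8, the alpha-8 integrin, had 209, 427, 199.5 and 177 against 120.4 to 165. Among lymphatic genes, the chemokine gene Ccl21a had 214 to 303 against 123 to 180.3, and Pdpn (podoplanin, which activated fibroblasts also carry) stood the other way with 399 to 705 against 772 to 1047.

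**Figure D4:**
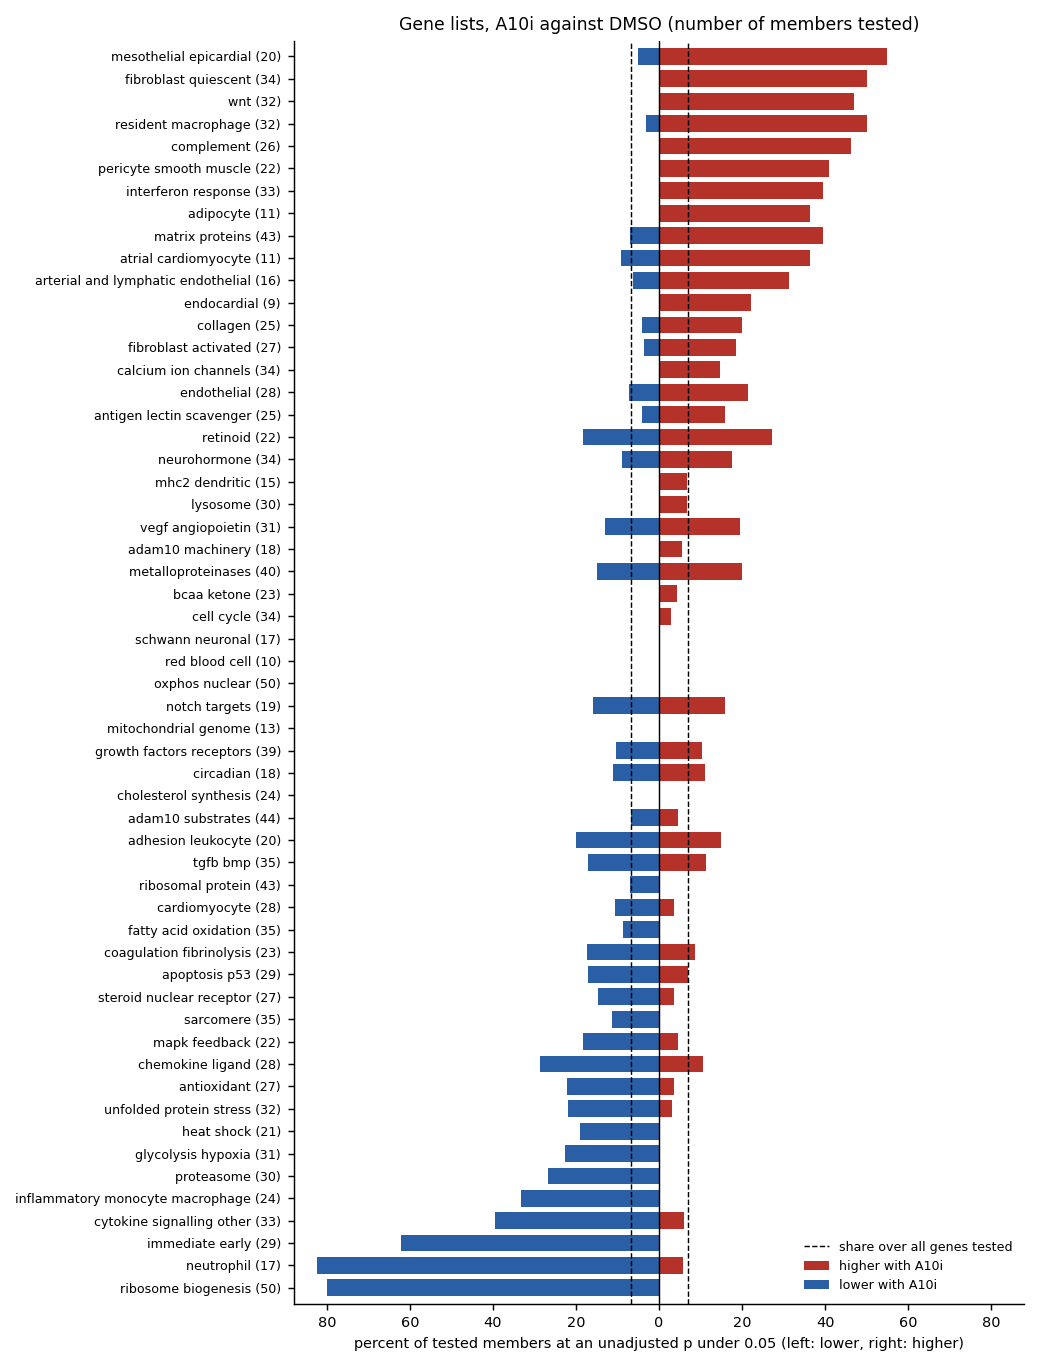
Share of tested members at an unadjusted p under 0.05 for the 56 lists with 9 or more genes tested, with higher members to the right (red), lower members to the left (blue), and dashed lines at 7.1% and 6.73%, the shares over all genes tested. Mesothelial, resting fibroblast, Wnt, resident macrophage and complement genes reach 46.2 to 55% on the right, and ribosome biogenesis (80%), neutrophil (82.4%) and immediate early genes (62.1%) extend farthest to the left.

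The transcripts around the drug's target differed little. Adam10 itself had 2326, 1790.4, 1783 and 1727 normalized counts with A10i and 1453, 1818, 1538 and 2381 with DMSO, and the log2 fold change stood at 0.09 (edgeR adjusted p = 0.853, standard error 0.16). Cx3cl1 had 424, 279, 392 and 293 against 257, 349, 298 and 487 (log2 fold change -0.00, standard error 0.21, edgeR adjusted p = 1). Of 44 genes of known ADAM10 substrates tested, 23 were higher and 21 lower, with 2 (4.55%) higher and 3 (6.82%) lower at an unadjusted p under 0.05, shares near those of all genes. The 2 higher ones were Kdr, described above, and Cxcl16, a chemokine held in the membrane, which had 747.2, 438.2, 501.4 and 564.5 with A10i and 292.2, 499.6, 313.8 and 445.5 with DMSO and overlaps Zmynd15 on the other strand. Of the lower ones, Epha2, a receptor tyrosine kinase, had 324 to 405 against 422 to 564, and Icam1, an adhesion molecule of leukocytes and endothelium, 488 to 602 against 585 to 724. Of 18 genes for cofactors and neighbours in membrane proteolysis, 1 was higher at that level. This was Tspan15, a tetraspanin that escorts ADAM10 to the membrane, with 239, 212, 259 and 249 against 143, 162, 179 and 181 and no overlap (log2 fold change 0.53, standard error 0.12, edgeR adjusted p = 0.112).

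Notch receptors are cut by ADAM10 when they signal, and 19 genes of the pathway and its targets were tested. Of these, 3 (15.8%) were higher and 3 (15.8%) lower at an unadjusted p under 0.05, with a median of 0.09. Dtx1 was higher as given above. Snai2, a transcription factor of mesenchymal transition, had 166, 97, 148 and 131 against 66, 97, 69 and 90.3, where A117 touches the highest DMSO mouse. Rfng, a glycosyltransferase that tunes Notch ligands, had 381 to 458 against 323 to 356. Myc stood lower, with 333, 241, 153 and 246 with A10i, 557, 374, 378 and 667 with DMSO and 48 to 73 in sham mice (log2 fold change -1.02, standard error 0.25, edgeR adjusted p = 0.14).

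The 9 genes that fell were Gm5483, Atf3, Dusp5, Itprip, Resf1, Adamts9, Ier3, Fnip2 and Ell2, each with an edgeR adjusted p of 0.0479. Gm5483 (ENSMUSG00000079597, chromosome 16, 36184212 to 36188111), a predicted stefin gene whose near copies make its count uncertain, had 15, 6.9, 7.4 and 6.9 with A10i and 81, 55, 162 and 90.3 with DMSO. The log2 fold change was -3.39 (standard error 0.41). Sham mice had at most 1.1. Gm5483 is not in the neutrophil list, which holds other stefin genes. Of these, Stfa2l1 (chromosome 16, 36156811 to 36161953) had 13.2, 8.9, 1.1 and 12.6 against 42.1, 42.0, 78.2 and 57.2. The part of neutrophils in the Gm5483 values was not tested. Atf3 (ENSMUSG00000026628, chromosome 1, 191170296 to 191218039), a transcription factor induced by cell stress, had 338, 277, 354 and 253 against 2092, 952, 1061 and 1096, and 78 to 111 in sham mice. Its log2 fold change was -2.09 (standard error 0.25), with A105 far above the other DMSO mice.

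Dusp5 (ENSMUSG00000034765, chromosome 19, 53529109 to 53542431), a nuclear phosphatase that switches off the kinase ERK, had 244, 294, 254 and 254 with A10i, 414, 403, 452 and 454 with DMSO and 93 to 111 in sham mice. Its log2 fold change was -0.72 (standard error 0.10). Ier3 (ENSMUSG00000003541, chromosome 17, 35821684 to 35822923), an early response gene of cell survival, had 1365, 1222, 1179 and 1193 against 2343, 1705, 2087 and 2155 (log2 fold change -0.74, standard error 0.10). For Ell2 (ENSMUSG00000001542, chromosome 13, 75706757 to 75772364), an elongation factor of RNA polymerase II, the values were 770.5, 665, 627 and 670.3 against 1386, 1129.5, 979.7 and 1284 (log2 fold change -0.80, standard error 0.11). All 3 stayed above the sham level in every A10i mouse, where Ell2 had 509 to 538.

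Resf1 (ENSMUSG00000032712, chromosome 6, 149309414 to 149335663), a factor in silencing retroelements, had 1423, 1335, 1199 and 1568 with A10i and 2427, 2317, 2282 and 3117 with DMSO (log2 fold change -0.87, standard error 0.12). Itprip (ENSMUSG00000117975, chromosome 19, 47894602 to 47919299), which binds the inositol trisphosphate receptor, had 513 to 569 against 770.4 to 906 and 494 to 526 in sham mice. Fnip2 (ENSMUSG00000061175, chromosome 3, 79455974 to 79567796), a partner of folliculin in nutrient sensing, had 676 to 866 against 1142 to 1336, while sham mice had 1128 to 1270.3. Adamts9 (ENSMUSG00000030022, chromosome 6, 92772699 to 92943492), a secreted protease, had 974 to 1171 against 1556 to 2059, and 3 tested genes overlap it on the other strand. The next gene, Itpkc, which phosphorylates inositol trisphosphate, had 171 to 199 against 265 to 369 (log2 fold change -0.88, edgeR adjusted p = 0.0514). Itpkc, St3gal4, Sparcl1, Itga8, Bdh1 and Atp2a2 each overlap another tested gene, so their counts carry the same uncertainty as that of Adamts7.

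Immediate early genes, which cells switch on within minutes of a stimulus, were lower in 27 of 29 tested, 18 of them (62.1%) at an unadjusted p under 0.05 and 0 higher, with a median of -0.62. Of the members, Atf3 and Ier3 fell. The summed level was 1236.4, 1104.6, 1285.3 and 1066.8 CPM with A10i and 1786.7, 1474.4, 1529 and 1696.7 with DMSO, without overlap, against 873 to 907 in sham mice. With each mouse left out, 17 to 20 members were at that level and the median lay between -0.70 and -0.43. Fosl2, a subunit of the transcription factor AP-1, had 1739, 1383, 1634 and 1245 normalized counts against 2587, 2243, 2253 and 2581 (log2 fold change -0.68, standard error 0.11, edgeR adjusted p = 0.0707). Maff, a small Maf protein, had 393, 463, 395 and 432 against 804, 616, 560.4 and 806 (edgeR adjusted p = 0.0731, log2 fold change -0.72). The neutrophil markers, 14 of 17 of them lower at an unadjusted p under 0.05 and with the summed level given above, moved with this list, and their part in it was not tested.

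Lists of other regulators were mixed. Of 18 clock genes, 10 were higher and 8 lower, 2 (11.1%) in each direction at an unadjusted p under 0.05. Of 29 genes of apoptosis and p53, 16 were higher and 13 lower, 2 (6.9%) and 5 (17.2%) at that level. Of 27 steroid and nuclear receptor genes, 10 were higher and 17 lower, 1 (3.7%) and 4 (14.8%) at that level. The orphan nuclear receptor gene Nr4a3 had 564, 807, 896 and 604 with A10i and 1670.2, 1451, 1079 and 1527 with DMSO, without overlap (log2 fold change -0.99, standard error 0.18, edgeR adjusted p = 0.0736), whereas its relative Nr4a1 had 534, 426, 1204 and 501 against 1081 to 1728, with A119 among the DMSO mice. Bhlhe40, a clock repressor that responds to hypoxia, had 1798, 1829, 1717 and 1776 against 2719, 2232, 2453 and 2626 (log2 fold change -0.49, standard error 0.08, edgeR adjusted p = 0.0707). Nfil3, another clock repressor, had 442 to 512 against 528 to 844. The clock output genes Per3 and Hlf stood the other way, with 716.1 to 1096 against 460.6 to 859.5 and with 525.1 to 758.8 against 280.0 to 541.6. Per3 shares its strand with the overlapping Camta1. Gadd45g, a stress sensor, had 287 to 365 against 505 to 1017 and 224 to 331 in sham mice, while Bmf, which promotes apoptosis, had 178.4 to 278.0 against 113.2 to 140.5. Of 22 feedback genes of the MAP kinase pathway, 4 (18.2%), Dusp5 included, were lower and 1 was higher at an unadjusted p under 0.05, and 2 were lower without A105, A117 or A128.

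A palindromic cAMP response element (TGACGTCA), which is its own reverse complement, was found in the promoter windows of 2 of 22 immediate early genes with an entry (9.09%), against 3.39% of all 11188. The AP-1 element TGACTCA, which does not contain or lie within the other element, was found in 1 of the 22 (4.55%) against 4.78%. Among interferon genes the AP-1 element was found in 5 of 24 (20.8%), and among ribosome biogenesis genes in 0 of 45. The Maff window (GRCm38.p6, chr15:79347270-79347519, plus strand) is shown as the one with the smallest p, 5′ to 3′ with the element in capitals, 29 bases before the start.
Maff: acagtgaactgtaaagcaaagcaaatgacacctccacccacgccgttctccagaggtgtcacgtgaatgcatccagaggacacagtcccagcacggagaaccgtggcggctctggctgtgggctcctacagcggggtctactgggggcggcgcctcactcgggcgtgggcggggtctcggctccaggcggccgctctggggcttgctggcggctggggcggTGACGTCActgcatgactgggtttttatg

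Genes that build and clear proteins were lower in small, even steps. Of 50 ribosome biogenesis genes, 40 (80%) were lower at an unadjusted p under 0.05, against 6.73% of all genes, with a median of -0.34. With each mouse left out, 31 to 41 were at that level. Of the 50, 27 were without overlap (against 4.11% of all genes) and 5 passed 0.01 in DESeq2 (against 0.678%). Their summed level was 1354.3 to 1599.6 CPM with A10i and 1692.4 to 2108.8 with DMSO, without overlap, and 1460.5 to 1517.1 in sham mice. Nop58, a core protein of small nucleolar RNPs, had 848, 712, 633 and 640.4 with A10i and 1181, 991, 1000.1 and 1172 with DMSO (log2 fold change -0.61, standard error 0.11, edgeR adjusted p = 0.0707). Wdr43, a factor of small subunit processing, had 657 to 715 against 821 to 1010.3. Proteasome subunits were lower in 29 of 30 tested, 8 (26.7%) at an unadjusted p under 0.05, with a median of only -0.14 (5 members without A119), and 13 of 30 (against 4.11% of all genes) were without overlap. The summed level was 2410 to 2558.1 CPM with A10i against 2628.4 to 3008.2 with DMSO, and sham mice had 2500.6 to 2526.9. Psmb3, a subunit of the catalytic core, had 506 to 540.5 normalized counts against 606 to 662, and the regulatory subunit gene Psmd11 had 1676 to 1846 against 2063 to 2760.2. Ribosomal proteins themselves were lower in 40 of 43, with 3 (6.98%) at an unadjusted p under 0.05, close to the 6.73% of all genes, but 9 without A128 and 1 without A105, A117, A119, A120 or A129.

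The E-box CACGTG, a site that Myc binds, was found in the promoter windows of 12 of 45 ribosome biogenesis genes with an entry (26.7%), against 11.4% of all 11188. It was also found in 4 of 22 immediate early genes (18.2%) and in 0 of 24 interferon genes. The part of Myc in these lists was not tested. Shown is Utp18 (GRCm38.p6, chr11:93885767-93886016, minus strand), a factor of small subunit assembly and the ribosome biogenesis member with the smallest p that holds the E-box before the start, 5′ to 3′ with the E-box in capitals, 20 bases before the start.
Utp18: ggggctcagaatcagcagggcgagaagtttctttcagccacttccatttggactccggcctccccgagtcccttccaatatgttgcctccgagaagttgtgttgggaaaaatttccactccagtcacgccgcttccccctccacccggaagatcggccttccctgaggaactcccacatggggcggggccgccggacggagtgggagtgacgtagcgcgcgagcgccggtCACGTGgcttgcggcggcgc
Utp18, named for its promoter after its values were seen, had 433, 379.8, 387 and 383 normalized counts with A10i and 502, 455, 446 and 570.0 with DMSO, without overlap, and 214 to 278 in sham mice.

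**Figure D5:**
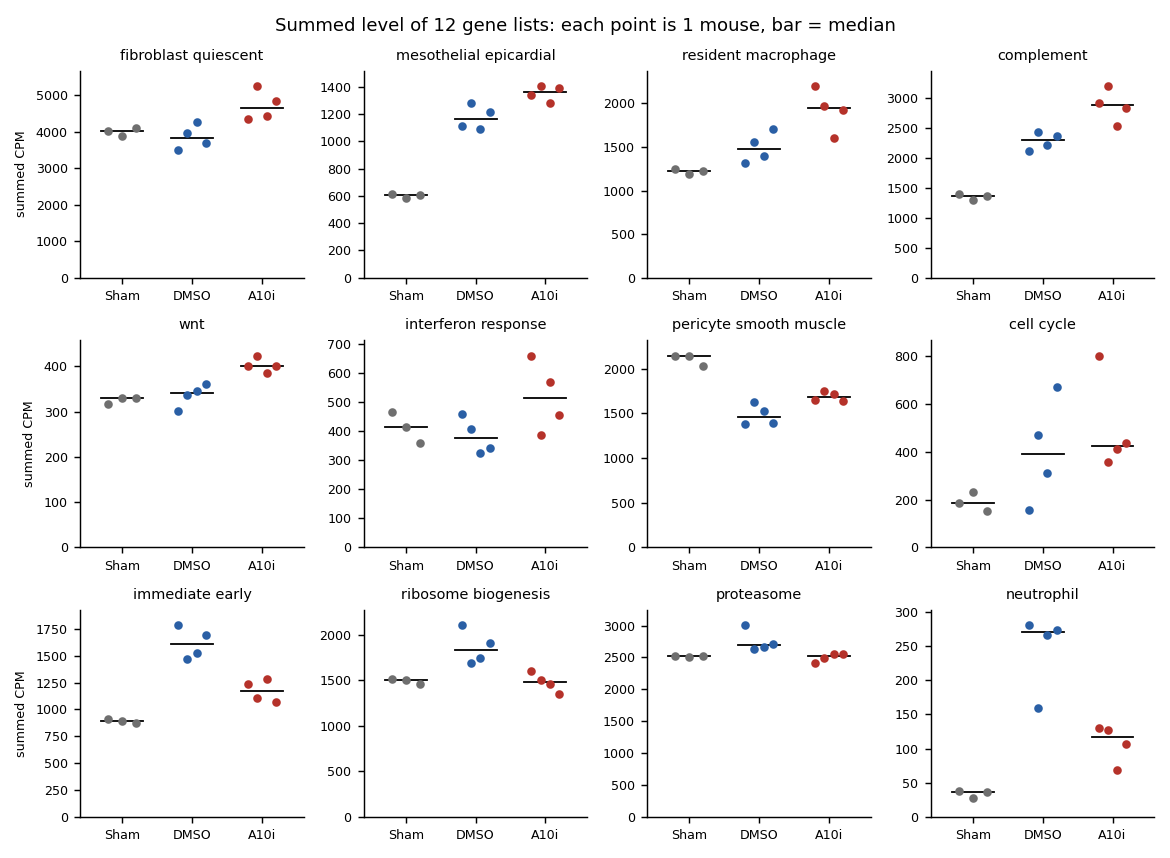
Summed level in CPM (vertical axes, each starting at 0) of 12 lists in every sham, DMSO and A10i mouse, where each point is 1 mouse and the bar is the median. A10i and DMSO points do not overlap for resting fibroblast, complement, Wnt, pericyte, immediate early, ribosome biogenesis, proteasome and neutrophil lists, and they overlap for resident macrophage, mesothelial, interferon and cell cycle lists, where A116 and A129 are high and A105 is low for the cell cycle.

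Of 28 cardiomyocyte markers, 17 were higher and 11 lower, 1 (3.57%) and 3 (10.7%) of them at an unadjusted p under 0.05 (against 7.1% and 6.73% of all genes), with a median of 0.08. The 3 lower ones were 7 without A128. Of 35 sarcomere genes, 0 were higher and 4 (11.4%) lower at that level, 8 without A128 and 2 without A120, and of 21 heat shock genes, 0 and 4 (19%), with 2 without A105, A117 or A120. Nppb, which encodes the B-type natriuretic peptide released by stretched muscle, had 7325, 4648, 7349 and 4854 normalized counts with A10i and 29528, 11075, 9541 and 15204 with DMSO, without overlap, and 1937 to 2062 in sham mice (log2 fold change -1.43, standard error 0.35, edgeR adjusted p = 0.132). Ankrd1, a titin-bound stress sensor, had 40074, 42742, 42556 and 29516 against 116793, 59875, 70011 and 60544 (log2 fold change -0.99, standard error 0.23, edgeR adjusted p = 0.12). Xirp1 and Flnc, proteins of the muscle's repair and anchoring sites, had 6897 to 10029 against 10211 to 30012 and 10668 to 15533 against 16241 to 43134. The small heat shock protein genes Hspb1 and Cryab had 2427 to 2850.1 against 3421 to 7873 and 27578 to 28843 against 30429.9 to 52585. In Nppb, Ankrd1, Xirp1, Flnc, Hspb1 and Cryab A105 was the highest mouse, and in all 6 the A10i mice lay below the other 3 DMSO mice as well. Myh7, the slow myosin heavy chain, overlapped, with 20195, 51159, 27553 and 25207 against 51340.4, 53034, 47735 and 52692, and its count is uncertain since Mhrt lies on the other strand. Xirp1 shares its strand with the overlapping Cx3cr1, and Cryab overlaps Hspb2 on the other strand.

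Pump and fuel genes had no common direction. Atp2a2, the calcium pump of the sarcoplasmic reticulum, had 287819, 350290.0, 396625 and 347613 with A10i and 271131, 275961, 239973 and 166839 with DMSO, without overlap. Sham mice had 475122 to 487911 (log2 fold change of A10i against DMSO 0.54, standard error 0.19, edgeR adjusted p = 0.26). Bdh1, which oxidizes ketone bodies, had 3221, 2222, 3178 and 3104 against 1850.2, 2398, 1744 and 1159. Nuclear genes of oxidative phosphorylation were higher in 50 of 50, yet 0 passed an unadjusted p of 0.05, with a median of 0.13 that was 0.02 without A129, and their summed levels of 21706 to 28884 and 19209 to 27778 CPM overlapped. Genes of fatty acid oxidation were lower in 27 of 35, 3 (8.57%) at an unadjusted p under 0.05, with 1 without A105 or A128 and 6 without A117 or A127. Among glucose and hypoxia genes, 0 were higher and 7 of 31 (22.6%) lower at that level, 3 without A120 or A129, including the glucose transporter gene Slc2a1 with 982, 811, 733 and 760.0 against 1499, 998, 1139.5 and 1764 (log2 fold change -0.71, standard error 0.18, edgeR adjusted p = 0.139). Slc7a11, the cystine transporter of glutathione synthesis, had 61, 9.9, 8.4 and 15 against 118, 79.7, 71 and 141, and at most 3.1 in sham mice.

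Cell division genes showed no difference that the mice carried together. Of 34 tested, 24 were higher, 1 at an unadjusted p under 0.05, and the median of 0.40 was -0.02 without A116, 0.05 without A105 and 0.88 without A129. Cenpe, a kinetochore motor, had 540.3, 185, 205 and 246 against 19.4, 204.0, 128.4 and 352.2. The 1 gene past that level, Cenpf, had 797 to 1139 with A10i, 188 to 627 with DMSO and 1235 to 1625 in sham mice, an order among the groups that Cenpe does not have, as sham mice had 24 to 62 there. Cholesterol synthesis, nerve and Schwann cell, red blood cell and mitochondrial genome lists each held 0 members at an unadjusted p under 0.05 in edgeR's test, although 7 of the 10 red blood cell genes did so without A105.

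Of 23 genes of clotting and fibrinolysis, 6 were higher and 17 lower, 2 (8.7%) and 4 (17.4%) at an unadjusted p under 0.05. Plaur, the receptor of urokinase, had 335, 270.0, 190.0 and 191 with A10i and 389, 383, 430.3 and 753 with DMSO (log2 fold change -0.98, standard error 0.26, edgeR adjusted p = 0.157), without overlap. Of 39 growth factor and receptor genes, 21 were higher and 18 lower, 4 (10.3%) in each direction at that level. Ereg, an EGF receptor ligand, had 76, 37, 31 and 33 against 104.6, 55.7, 149.7 and 122.4. Bdnf, a neurotrophin, had 138 to 172 against 174 to 254, without overlap. Of 33 cytokine signalling genes tested, 2 (6.06%) were higher and 13 (39.4%) lower at an unadjusted p under 0.05, and leaving out each mouse gave 9 to 14 lower ones.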

How the data were processed

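The authors sequenced poly(A) RNA, aligned the reads to mouse GRCm38 with GSNAP (2020-12-16) and counted them per gene of Ensembl release 98 with featureCounts (2.0.1), and deposited 1 table of raw counts for all 11 libraries. The strand setting of the counting is not given in the sources used here, so genes that overlap others are named as such. Gene symbols were added here from GENCODE M21, in which 55240 of the 55421 gene rows had an entry. Spike-in rows were left out of library sizes and tests, where they took at most 0.000194% of the counts.

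The 4 A10i and 4 DMSO libraries were compared with edgeR 4.0.16 in R 4.3.3 (filterByExpr, TMM, robust quasi-likelihood fit, Benjamini-Hochberg adjustment, threshold 0.05), because no gene passed the study's 0.01 in edgeR. The common dispersion was 0.0285. DESeq2 1.42.0, limma-voom (limma 3.58.1), other scalings and filters, a joint fit of 11 libraries and leaving out each library were the alternatives. The scripts were tested on simulated data. Each mouse is a separate animal.

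Genes were named by a rule: every called gene, the 20 higher and 10 lower protein-coding genes without overlap with the smallest p (chemokine ligands and neutrophil genes left out of the lower ones), up to 4 genes per list with the smallest p, and Adam10 and Cx3cl1. The rule named 235 genes, and a part of them is described. The groups, the 59 lists (1489 genes) and the rule were chosen with earlier results of these data known. Unadjusted p-values were used to count genes, to rank genes for naming and for the promoters shown, and to set the genes compared in length and abundance. No gene was called by them. Promoter windows are from RefSeq on GRCm38.p6.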

Additional observations from a re-analysis of the deposited data

Results flagged for a closer look

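The groups of 4 mice examined were 250, from the 125 genes named by the rule and kept in the text, in A10i and in DMSO. In 20 of these groups, 1 mouse lay so far from the others that its gap, divided by the range of the group, passed Dixon's 95% critical value. Chance flags about 1 in 20 groups. No cause was weighed for any of them.

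Mouse A116 was high in 5 genes. The ratio was 0.941 for Gm5483, 0.846 for Trac, 0.868 for Ereg, 0.876 for Slc7a11 and 0.894 for Adam10, where A116 had 2326 normalized counts and the other A10i mice 1727 to 1790.4. Mouse A117 stood apart in 5 genes, high in Ccl21a (0.841), Lmod1 (0.874), Itga8 (0.873) and Car3 (0.887) and low in Bdh1 (0.883). Mouse A119 was high in Ebf2 (0.894) and Nr4a1 (0.861). Among DMSO mice, A105 was high in Atf3 (0.874), with 2092 against 952 to 1096, in Hspb1 (0.904) and in St3gal5 (0.847), and low in Apcdd1 (0.831). A129 was high in Kit (0.948) and Plaur (0.872), A128 was low in Trf (0.878) and A127 was low in Itpkc (0.917). In Ebf2, Atf3, St3gal5, Trf, Itpkc and Hspb1 the groups stayed apart all the same, and the values are given above.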

How the results depend on the processing

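Since the settings test different numbers of genes, calls are given as a share of the genes with an adjusted p. The reported shares were 0.0179% higher and 0.0536% lower (3 and 9 genes). They became 1.61% and 1.6% with DESeq2 (273 and 270 genes) and 0.573% and 0.678% with DESeq2 at an adjusted p under 0.01. edgeR gave 0 and 0 at 0.01, 0.429% and 0.488% at 0.10 (72 and 82 genes), 0.272% and 0.246% without a filter (86 and 78 genes), and 0.669% and 0.681% of 17480 genes on all 11 libraries. The shares were 0 and 0 with limma-voom (1237 and 1091 genes at an unadjusted p under 0.05), with library size alone (927 and 1126) and with 10 counts required in every library (1112 and 1060), a filter that kept 10 of the 12 called genes. With each library left out they ran from 0 to 0.0881% higher (15 genes) and from 0 to 0.147% lower (25 genes), and 5 of 8 such fits called 0 genes. DESeq2 size factors (3 and 9 genes) and a fit without robust estimation (4 and 9) gave like counts. The causes were not tested. All 12 called genes kept their direction wherever they were tested, with a log2 fold change of at least 0.56 in size. Of the genes named in the text by the rule, 3 did not. With 1 library left out, Kit ran from -0.68 without A116 to 0.10 without A129. Adam10 turned to -0.00 without A105 and -0.02 without A116, and reached 0.25 without A129. Cx3cl1 turned to 0.02 with limma-voom, to 0.00 with 10 counts in every library, and to 0.20, 0.09 and 0.07 without A129, A117 and A120, with its lowest value of -0.12 without A105. Of 59 list medians, 10 changed sign under some alternative. No paired analysis was possible because the animal numbers are not shared between the groups. At these depths, genes with a few reads per library, such as Stra6 and Gpr1, are limited by counting error.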
